A study of Rattus norvegicus with 862 samples.

Results

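Celecoxib and rofecoxib are coxibs, drugs made to block cyclooxygenase 2 (COX-2, gene Ptgs2) while sparing cyclooxygenase 1 (COX-1, gene Ptgs1). Their heart arrays were selected by compound label, which gave 15 arrays from 15 rats, of 862 arrays from 840 rats in the whole collection. Celecoxib had been given at 35 mg/kg for 5 d (n = 3) and at 400 mg/kg for 3 d (n = 3) and 5 d (n = 3), and rofecoxib at 775 mg/kg for 3 d (n = 3) and 5 d (n = 3). All 15 animals were male Sprague Dawley, CD-IGS rats, aged 6 to 8 weeks when bought, and each had received the drug in corn oil by oral gavage. Each coxib group was set against rats given corn oil alone by the same route, for the same number of days, with RNA extracted in the same campaign (8 rats at 3 d and 11 rats at 5 d). The collection profiled hearts after 88 compounds on Affymetrix rat arrays, to ask which expression changes go with toxicity. Per the labels, hearts of 3 d and 5 d rats were removed from 7:00 a.m. onward over 2 to 4 h, with lights on at 6:00 a.m.

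Cyclooxygenases turn arachidonic acid, which phospholipases release from membranes, into prostaglandin H2. Separate synthases then make prostacyclin, thromboxane and the prostaglandins, which act on receptors at the surface of nearby cells, and a transporter and a dehydrogenase remove them again. In the heart and vessels prostacyclin relaxes smooth muscle and opposes platelet clumping, thromboxane does the reverse, and rofecoxib was withdrawn from sale because of heart attacks and strokes. The molecules share 2 aryl rings on a 5-membered core but differ in that core and in the group carried by a ring: celecoxib is a pyrazole with a benzenesulfonamide, and rofecoxib a furanone with a methylsulfone.

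The coxibs shared no dose, so their values stand side by side and 0 pairs of celecoxib with rofecoxib groups were tested. The pairs that could be tested were the celecoxib doses at 5 d, which came from the same animal study, and celecoxib with aspirin at 35 mg/kg and 5 d, which came from different studies. The study that gave the 9 celecoxib rats held none of the matched controls, so drug and study cannot be told apart in any comparison of celecoxib with controls. The rofecoxib study held 1 of the controls (3 d, replicate 3) and 6 rats given aspirin at 35 mg/kg in corn oil, and the values of these animals are given where a result turns on them.

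The arrays held heart RNA by their markers. The median level of the 21 measured heart muscle genes lay between 13.3 and 13.7 in the coxib groups, and between 13.4 and 13.7 in their controls, where a level is the deposited log2 intensity. Atrial genes varied more: the median of the 8 measured atrial genes reached 9.45 and 10.4 in replicates 1 and 3 of rofecoxib at 3 d and 8.69 in replicate 1 of celecoxib 400 mg/kg at 5 d, against 6.51 to 9.56 in the controls, of which 3 were above 8.5. In replicate 3 of rofecoxib at 5 d the median liver gene was at 6.96, against 4.93 to 5.60 in the controls. These are bulk samples of heart, in which fewer cells of a type and less RNA per cell cannot be told apart.

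Changes were called over 14217 genes with limma, days being a term of the fit, where the p adjusted by Benjamini and Hochberg did not exceed 0.01 and the fold reached 1.5. Celecoxib at 400 mg/kg changed 10 genes (0.0703% of those tested), 2 higher (0.0141%) and 8 lower (0.0563%). Celecoxib at 35 mg/kg changed 3 genes (0.0211%), 1 higher (0.00703%) and 2 lower (0.0141%), and rofecoxib changed 27 (0.19%), 21 higher (0.148%) and 6 lower (0.0422%). With an adjusted p of 0.05 and no fold minimum the counts were 52 (0.366%), 5 (0.0352%) and 118 (0.83%). At an unadjusted p under 0.05 the numbers were 1466, 2158 and 1548 genes, in the same order. Clock genes were called in both high-dose comparisons (Dbp, Per3 and Nfil3 in each). The neutrophil genes S100a8 and S100a9 rose with rofecoxib at both durations together and with celecoxib 400 mg/kg in the 5 d rats, and Atf3 fell with celecoxib at both doses. Leaving out the 6 arrays high in atrial genes (3 coxib rats and 3 controls) left 0, 1 (Atf3) and 1 (Bhlhe41) calls in that order, although the log2 changes moved little: Dbp went from 2.17 to 2.14 with celecoxib 400 mg/kg (adjusted p = 0.0227 by limma), and S100a8 from 2.90 to 2.72 with rofecoxib (adjusted p = 0.0123). That setting was chosen after the data were seen and leaves 1 rofecoxib rat at 3 d. With extraction day as a term of the fit Rcan1 alone stayed called of the 10 celecoxib 400 mg/kg genes, while Dbp was at 2.07 (adjusted p = 0.0123), Per3 at 1.57 (adjusted p = 0.0372) and Atf3 at -3.87 (adjusted p = 0.0372).

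**Figure D1:**
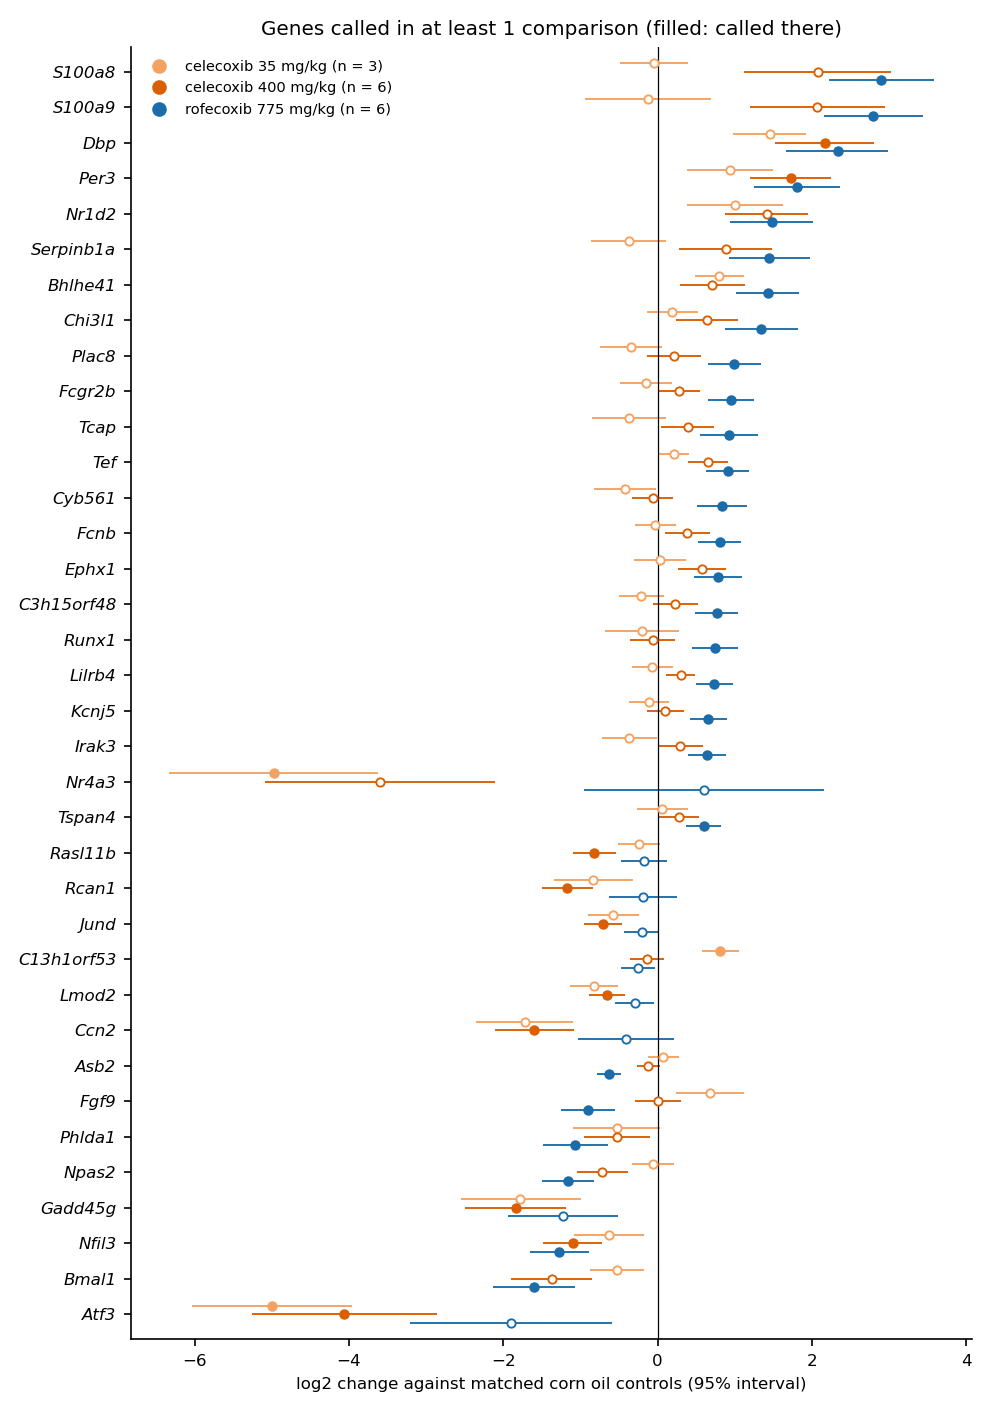
Log2 change with 95% interval (x axis) of each gene (rows) called in at least 1 of 3 comparisons with corn oil controls: celecoxib 35 mg/kg (light orange, 3 rats), celecoxib 400 mg/kg (orange, 6 rats) and rofecoxib 775 mg/kg (blue, 6 rats), with filled points where the gene was called. Dbp and Per3 lie right of 0 in all 3, Atf3 lies left of 0 in all 3, and S100a8 and S100a9 lie near 0 for celecoxib 35 mg/kg alone.

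The heart keeps its own circadian clock. The activators Bmal1, Clock and Npas2 bind E-boxes (CACGTG, the same on both strands) in the genes of Per, Rev-erb (Nr1d1, Nr1d2), Dbp and Tef; Rev-erb proteins repress Bmal1 through ROR elements, and Dbp and Tef compete with Nfil3 for D-boxes. Of the 16 clock genes measured, 14 had a promoter in RefSeq (GRCr8 assembly). Within the 250 bases before the start, 4 of the 14 held an E-box (Bhlhe40, Bhlhe41, Nr1d1 and Tef), against 5.59% of all 33469 promoters. A ROR element (TAGGTCA, or TGACCTA on the other strand) stood in 1 of the 14, Bmal1, against 2.26% of all promoters, and a D-box (TTATGTAA or TTACATAA) in 1, Per2, against 0.828%. A match is a description of the letters in this window and was not tested for binding. Nr1d1, Bhlhe40 and Per2, which held a motif, were not called with rofecoxib. For the called genes Dbp, Per3, Nfil3, Npas2 and Nr1d2 no motif was found in this window, so there the motifs did not mark out the called clock genes. Clock genes without a promoter were not searched and are not told apart here from those without a motif. The stretches of the 3 clock genes that had both a motif and a call after rofecoxib are shown with the motif in capitals (Bhlhe41 and Tef higher, Bmal1 lower).
Bmal1, chr1:176766262-176766327, plus strand: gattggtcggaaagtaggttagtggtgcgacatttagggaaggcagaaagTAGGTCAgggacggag
Bhlhe41, chr4:180569356-180569453, minus strand: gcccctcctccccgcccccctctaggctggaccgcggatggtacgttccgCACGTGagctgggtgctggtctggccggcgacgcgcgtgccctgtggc
Tef, chr7:115206579-115206684, plus strand: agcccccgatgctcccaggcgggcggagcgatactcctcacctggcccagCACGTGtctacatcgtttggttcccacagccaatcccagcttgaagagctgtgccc

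Dbp, an output of the clock that activates D-box genes, was high in every rat given either coxib at the high dose. Its levels were 10.0, 8.83 and 9.26 after celecoxib 400 mg/kg at 3 d and 8.79, 9.30 and 9.59 at 5 d. After rofecoxib they were 9.26, 9.25 and 9.59 at 3 d and 9.81, 10.2 and 8.67 at 5 d. The lowest, median and highest of the 19 controls were 6.52, 6.90 and 10.2, and the highest was a single 3 d control, replicate 7, whose nearest neighbour among the 3 d controls was at 7.28. All 12 of these coxib rats lay above the other 18 controls, and 1 of the 12 lay above replicate 7. The log2 change in Dbp was 2.17 (SE 0.313, adjusted p = 0.00101 by limma) with celecoxib 400 mg/kg and 2.33 (SE 0.322, adjusted p = 0.000262) with rofecoxib. At 35 mg/kg the levels were 8.55, 8.58 and 7.88, of which 2 of 3 exceeded every 5 d control, and the change of 1.45 (SE 0.223) was not called (adjusted p = 0.0222). The control of the rofecoxib study stood at 7.02 in Dbp, and the aspirin rats of that study at 7.11, 6.77 and 7.25 at 3 d and 8.03, 6.75 and 8.10 at 5 d, all under the 6 rofecoxib rats.

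Per3, a member of the period family of clock repressors, moved with Dbp. Its levels were 8.44, 7.73 and 8.19 at 3 d and 7.77, 7.91 and 8.16 at 5 d after celecoxib 400 mg/kg, and 8.05, 8.18 and 8.26 at 3 d and 8.40, 8.57 and 7.19 at 5 d after rofecoxib. The controls ran from 5.62 through a median of 6.08 to 8.21, the highest being replicate 7 again, and without that rat all 12 high-dose coxib animals were above the control range. Per3 rose by 1.73 (SE 0.258, adjusted p = 0.00133 by limma) and by 1.81 (SE 0.27, adjusted p = 0.000563). The 35 mg/kg rats, at 7.33, 7.65 and 6.75, overlapped the 5 d controls, and their change of 0.94 had an adjusted p of 0.194.

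Bmal1, the partner of Clock and Npas2, went the other way. Its levels were 6.64, 7.32 and 7.11 at 3 d and 7.14, 6.19 and 6.76 at 5 d after celecoxib 400 mg/kg, and 6.84, 6.70 and 6.28 at 3 d and 6.57, 6.01 and 7.35 at 5 d after rofecoxib. Controls lay at 5.99 (replicate 7 of 3 d) and otherwise between 7.92 and 8.93, above all 12 of these rats. Bmal1 fell by 1.60 with rofecoxib (SE 0.257, adjusted p = 0.00124). With celecoxib 400 mg/kg the change of -1.37 (SE 0.254) missed the threshold (adjusted p = 0.0126). At 35 mg/kg the levels were 7.56, 7.70 and 8.07, 2 of 3 of them under every 5 d control, with a change of -0.53 (adjusted p = 0.217). Bmal1 was at 8.72 in the control of the rofecoxib study, and the lowest of the 6 aspirin rats was at 7.45.

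Of the other clock genes some passed and some did not. Nfil3, the repressor that opposes Dbp, was lower in all 12 high-dose rats (6.44 to 7.29) than in any control but replicate 7 (7.50 to 8.95 without it, 6.64 with it). It fell by 1.10 with celecoxib 400 mg/kg (adjusted p = 0.00482) and by 1.28 with rofecoxib (adjusted p = 0.000448). Rofecoxib also changed Npas2 (-1.16), Nr1d2 (1.48), Bhlhe41 (1.43), a repressor that competes at E-boxes, and Tef (0.91). With celecoxib 400 mg/kg the same 4 genes had changes of -0.72 for Npas2, 1.42 for Nr1d2, 0.71 for Bhlhe41 and 0.65 for Tef, none of them called, with adjusted p from 0.0126 for Nr1d2 to 0.151 for Bhlhe41. In all, 3 of 16 clock genes were called with celecoxib 400 mg/kg (2 higher, 1 lower), 8 with rofecoxib (5 higher, 3 lower) and 0 with celecoxib 35 mg/kg, against 0.0703%, 0.19% and 0.0211% of all genes. At an unadjusted p under 0.05 both high doses gave 8 clock genes higher and 5 lower, and 35 mg/kg gave 7 higher and 4 lower. Over all 14217 genes the same measure gave 400 higher and 1066 lower with celecoxib 400 mg/kg, 740 higher and 808 lower with rofecoxib, and 1038 higher and 1120 lower at 35 mg/kg.

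Leaving out control replicate 7 of 3 d moved the celecoxib 400 mg/kg count from 10 to 21 and the rofecoxib count from 27 to 32. That animal stood out by its values in clock genes themselves, so the larger counts follow from the choice and support nothing. Across days the clock response showed no called difference: 0 of 16 clock genes were called for a different change at 5 d than at 3 d with either coxib, and Dbp differed by 0.37 (95% interval -0.93 to 1.67) with celecoxib. The 95% interval for Dbp includes large differences in both directions, so the data do not show that the durations act alike.

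**Figure D2:**
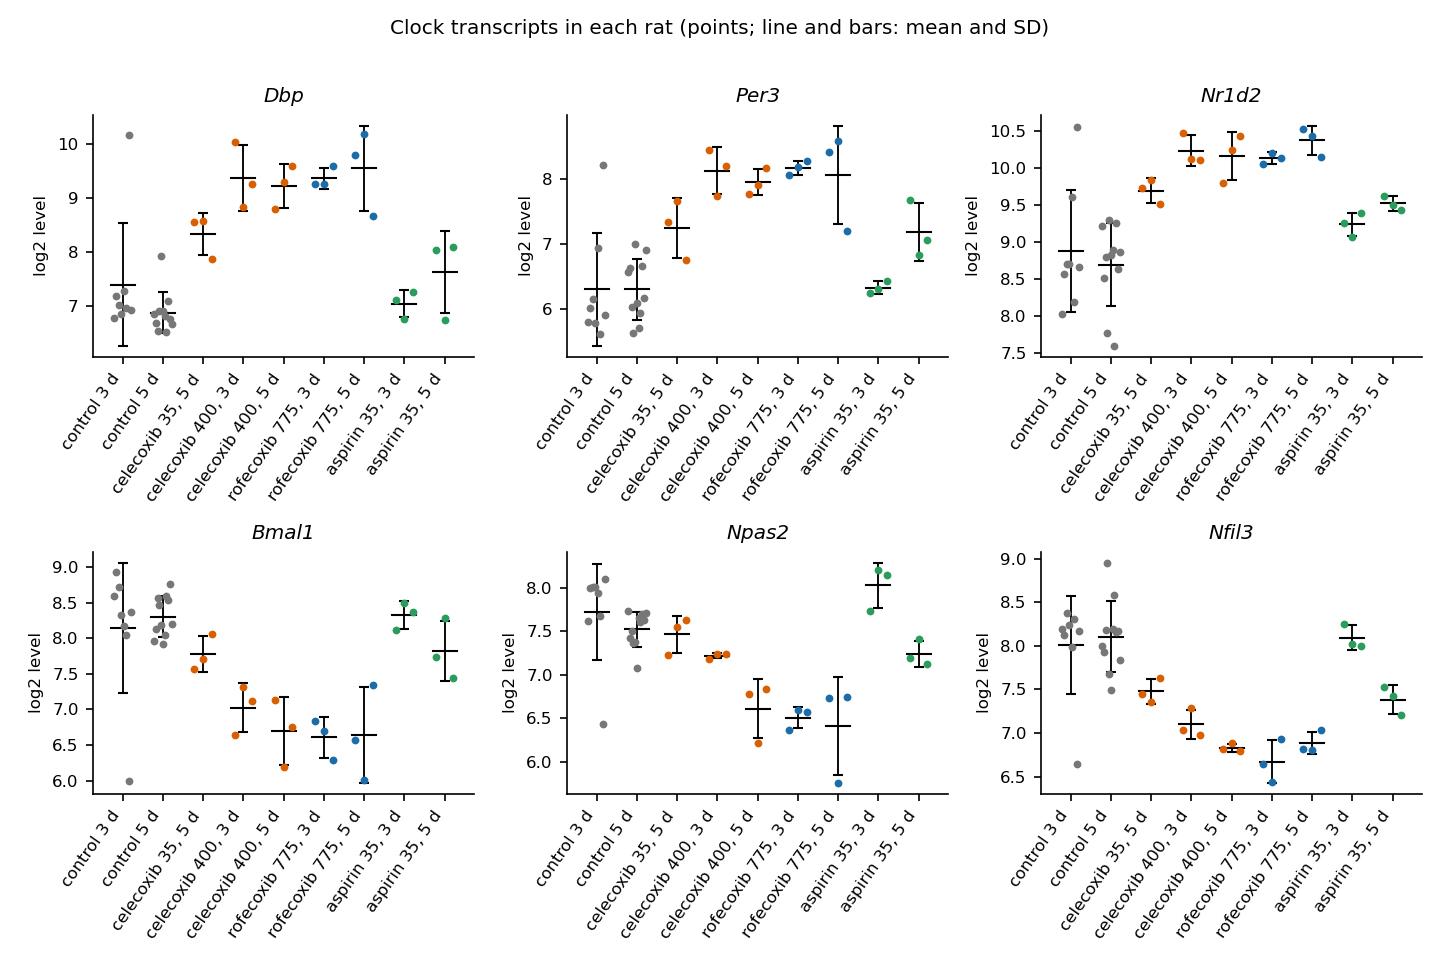
Log2 level (y axis) of 6 clock genes in each rat (points) with group mean (line) and SD (bars), by group (x axis): corn oil controls (grey), celecoxib (orange), rofecoxib (blue) and aspirin 35 mg/kg (green); doses are in mg/kg. Dbp, Per3 and Nr1d2 are above, and Bmal1 and Nfil3 below, the controls in the high-dose coxib rats, apart from 1 control at 3 d that lies among or beyond the coxib rats in each panel.

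S100a8 and S100a9 encode the partners of calprotectin, a calcium-binding protein packed into neutrophils. S100a8 was at 8.80, 8.05 and 8.55 after 3 d of rofecoxib and at 7.66, 6.09 and 10.7 after 5 d, each above every one of the 19 controls (4.84, 5.48 and 5.96 as lowest, median and highest). After celecoxib 400 mg/kg it was at 9.22, 11.2 and 7.78 in the 5 d rats, but at 5.58, 5.58 and 4.97 in the 3 d rats, inside the control range. At 35 mg/kg and 5 d it was at 5.67, 5.58 and 4.85. S100a9 had the same pattern: 10.1, 9.54 and 10.0 at 3 d and 9.16, 7.99 and 11.1 at 5 d of rofecoxib, 7.25, 7.14 and 6.42 at 3 d and 10.7, 11.8 and 9.74 at 5 d of celecoxib 400 mg/kg, and 5.72 to 8.16 in the controls. Of the 6 rofecoxib rats 5 exceeded every control in S100a9, and the exception was replicate 2 of 5 d.

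With rofecoxib S100a8 rose by 2.90 (SE 0.33, 7.47-fold) and S100a9 by 2.80 (SE 0.311, 6.96-fold), both with an adjusted p of 1.75e-05 by limma. With celecoxib 400 mg/kg the 5 d rats alone gave rises of 4.00 for S100a8 (adjusted p = 6.33e-07) and 3.72 for S100a9 (adjusted p = 1.26e-06). The change at 5 d exceeded that at 3 d by 3.99 (SE 0.53, adjusted p = 0.000865) for S100a8, by 3.44 (SE 0.538, adjusted p = 0.00533) for S100a9 and by 0.64 (adjusted p = 0.00533) for Stfa2l2, a cysteine protease inhibitor of the stefin A family, and these were the only 3 genes called in that comparison (0.0211%). In fits that left out 1 rat the S100a8 call held in all 25, the S100a9 and Stfa2l2 calls were each lost in 12 of 25, and all 3 were lost with extraction day as a term or with all groups in 1 fit. The dose comparison at 5 d named them as well: S100a8 was higher by 4.05 (SE 0.529, adjusted p = 0.00191) at 400 than at 35 mg/kg, S100a9 by 3.85 (SE 0.535, adjusted p = 0.00346) and Stfa2l2 by 0.77 (adjusted p = 0.0017). The control of the rofecoxib study was at 5.54 in S100a8 and 6.84 in S100a9, and the 6 aspirin rats of that study at 4.98 to 5.85 in S100a8.

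Of the other neutrophil genes, Fcnb was called with rofecoxib. Fcnb, the secreted lectin ficolin B, stood at 5.62, 5.48 and 6.42 at 3 d and 6.32, 5.80 and 6.66 at 5 d of rofecoxib against 4.80 to 5.61 in the controls, with 5 of 6 rats above them, and it rose by 0.81 (SE 0.135, adjusted p = 0.00233). The control of the rofecoxib study was at 5.485 in Fcnb. The Fcnb call was lost with all groups in 1 fit, with extraction day as a term, and without the rat with raised liver genes. It was lost as well without the arrays high in atrial genes. The collagenase Mmp8 rose by 0.78 and Fcnb by 0.88 in the 5 d rats of celecoxib 400 mg/kg (adjusted p = 0.00561 and 0.00259). Csf3r, the receptor for granulocyte colony-stimulating factor, changed by 0.52 with rofecoxib (adjusted p = 0.0163), and Camp, a granule peptide, by -0.03 (adjusted p = 0.935). Of the 7 neutrophil genes measured, rofecoxib called 3 higher, against 0.148% of all genes. Celecoxib 400 mg/kg called 4 higher at 5 d (of 8 genes called higher, 0.0563%) and 0 at 3 d, and 35 mg/kg called 0. The median change of the 7 was 0.52 with rofecoxib, 0.78 with celecoxib 400 mg/kg at 5 d and -0.08 at 35 mg/kg, beside medians over all genes of -0.0041, -0.0041 and -0.0015. The median level of the neutrophil genes in each rat was 4.88 to 5.07 at 3 d and 4.82 to 5.53 at 5 d of rofecoxib. It was 5.14 to 5.755 at 5 d of celecoxib 400 mg/kg. Both overlapped the controls, at 4.73 to 4.95 at 3 d and 4.76 to 5.33 at 5 d.

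Markers of blood and other cells moved beside these genes. The median level of the 8 red blood cell genes was 9.16, 8.40 and 8.62 in the 5 d rats of celecoxib 400 mg/kg, 1 of 3 above every control, against 7.06, 6.48 and 7.04 at 3 d, 7.36, 6.76 and 7.60 at 35 mg/kg, and 6.70 to 8.68 in the controls. In the dose comparison 7 of these 8 were higher at an unadjusted p under 0.05 (median 0.75), where 2344 of 14217 genes differed in either direction by that measure, led by Slc4a1 at 1.72 (adjusted p = 0.142). In the rofecoxib rats red cell medians ran from 6.96 to 7.91, inside the control range. Macrophage genes were positive in 12 of 12 with rofecoxib (10 at an unadjusted p under 0.05, median 0.46, 0 called; 740 of 14217 genes were higher by that measure). The median macrophage level was 7.81 to 8.62 at 3 d and 7.75 to 8.14 at 5 d of rofecoxib. In the same study the control was at 7.82, and the aspirin rats at 7.89 to 8.02 at 3 d and 7.18 to 7.92 at 5 d. Study and drug were not separated for this list. In replicate 2 of celecoxib 400 mg/kg at 5 d, the rat highest in S100a8, the median macrophage level was 8.91 against 7.03 to 8.09 in the controls. The part of blood or of other cells in the rise of S100a8 and S100a9 was not tested.

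**Figure D3:**
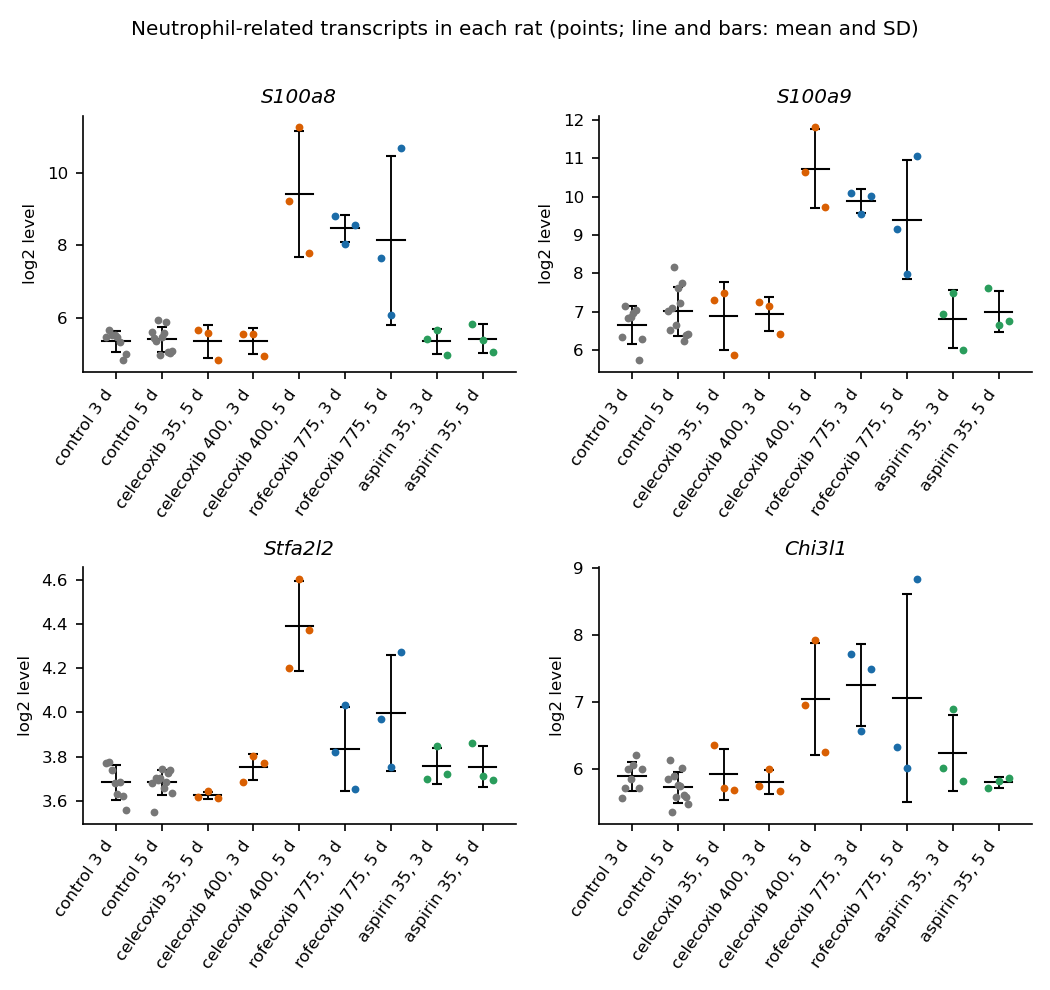
Log2 level (y axis) of 4 genes of neutrophils or inflamed tissue in each rat (points) with group mean (line) and SD (bars), by group (x axis), colours as controls grey, celecoxib orange, rofecoxib blue and aspirin green; doses are in mg/kg. S100a8 is above all controls in the 3 celecoxib 400 mg/kg rats at 5 d and in all 6 rofecoxib rats, and within the controls in the 3 d celecoxib rats.

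Further genes of immune cells were called with rofecoxib and not with either celecoxib dose over all its rats. Chi3l1, a secreted chitinase-like protein, was at 7.72, 6.57 and 7.49 at 3 d and 6.33, 6.03 and 8.83 at 5 d, with 5 of 6 rats above every control (5.36 to 6.22), and it rose by 1.35 (SE 0.232, adjusted p = 0.00323). Fcgr2b, the inhibitory Fc receptor, was at 5.31, 5.03 and 5.58 at 3 d and 5.59, 4.51 and 5.98 at 5 d against 4.04 to 4.99, and it rose by 0.96 (adjusted p = 0.000643). Serpinb1a, an inhibitor of neutrophil proteases, rose by 1.45, Plac8 by 0.99, the inhibitory receptor Lilrb4 by 0.74, the transcription factor Runx1 by 0.75 and Irak3, a brake on Toll-like receptor signalling, by 0.64. With celecoxib 400 mg/kg these changes were 0.64 for Chi3l1, 0.28 for Fcgr2b, 0.88 for Serpinb1a, 0.22 for Plac8, 0.30 for Lilrb4, -0.06 for Runx1 and 0.30 for Irak3, with adjusted p from 0.174 (Lilrb4) to 0.932 (Runx1). Chi3l1 was called in the 5 d celecoxib rats taken alone, at 1.31. Of 22 acute phase and complement genes, 15 were higher at an unadjusted p under 0.05 with rofecoxib (median 0.55), against 740 of all 14217, and 0 were called. This list was not recounted without the rat with raised liver genes. Leaving out the rat with raised liver genes took the rofecoxib calls from 27 to 15. Of the 7 immune genes named above, Serpinb1a (adjusted p = 0.0134), Plac8 (adjusted p = 0.016), Runx1 (adjusted p = 0.026) and Irak3 (adjusted p = 0.035) were lost, while Chi3l1 at 0.96, Fcgr2b at 0.83 and Lilrb4 at 0.67 stayed called.

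Some genes of heart muscle and growth signalling were called with rofecoxib and with neither celecoxib dose. Asb2, a ubiquitin ligase subunit of muscle, was at 11.0, 10.8 and 10.9 at 3 d and 11.2, 10.8 and 10.9 at 5 d, below every control (11.3, 11.6 and 12.0 as lowest, median and highest). It fell by 0.63 (SE 0.078, adjusted p = 6.16e-05), the smallest SE among the 27 rofecoxib calls, while celecoxib 400 mg/kg gave -0.12 and 35 mg/kg 0.08. Kcnj5, a subunit of the potassium channel opened by acetylcholine in the atria, rose by 0.66 (adjusted p = 0.00394), with 5 of 6 rats above every control. Tcap, a protein of the Z disc, rose by 0.92 (adjusted p = 0.00959), the growth factor Fgf9 fell by 0.90 (adjusted p = 0.00696) and Phlda1 fell by 1.06 (adjusted p = 0.00696). Of 25 fits that left out 1 rat each, the Tcap call was lost in 20, those of Fgf9 and Phlda1 in 14 each and that of Kcnj5 in 3. Without the rat with raised liver genes Tcap, Fgf9, Phlda1 and Kcnj5 all lost their calls. Kcnj5 was then at 0.54 (adjusted p = 0.0249 by limma), while Asb2 stayed called at -0.62. With all groups in 1 fit the calls of Kcnj5, Phlda1 and Asb2 were lost. With the upper 60% of genes by mean those of Kcnj5, Tcap, Fgf9 and Phlda1 were lost. Atrial genes were high in 2 of the 3 rats at 3 d, as given above, and without the arrays high in atrial genes the change in Kcnj5 was 0.63 (adjusted p = 0.124) and that in Asb2 -0.63 (adjusted p = 0.0127). No difference between celecoxib and rofecoxib was tested for any of these genes, since the doses differed.

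Atf3, a transcription factor switched on within minutes of stress, was near the bottom of its range after celecoxib. Its levels were 4.83, 4.65 and 4.34 at 35 mg/kg, and 4.38, 4.46 and 5.78 at 3 d and 4.40, 4.52 and 4.63 at 5 d of 400 mg/kg. The 5 d controls lay at 7.99, 9.81 and 10.8 as lowest, median and highest, above all celecoxib rats of that duration, and the 3 d controls spread from 5.10 through 8.43 to 9.81. Atf3 fell by 4.99 at 35 mg/kg (SE 0.489, adjusted p = 0.000226) and by 4.06 at 400 mg/kg (SE 0.583, adjusted p = 0.00101), and the doses differed by -0.09 (95% interval -1.31 to 1.12). After rofecoxib its levels were 8.01, 7.96 and 6.46 at 3 d and 7.46, 4.99 and 6.33 at 5 d, and the change of -1.90 was not called (adjusted p = 0.19). Rats given carboxymethyl cellulose (CMC) in place of corn oil also had low levels in part: those 18 controls spread from 4.23 to 9.55 in Atf3, so the levels seen with celecoxib also occurred in rats given a vehicle alone.

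Nr4a3, an orphan nuclear receptor induced in the same way, was at 4.63, 4.25 and 4.24 with celecoxib 35 mg/kg and at 4.26 to 5.24 in the 6 rats of 400 mg/kg, against 6.63 to 10.8 in the 5 d controls and 4.67 to 10.3 in the 3 d controls. It fell by 4.98 at 35 mg/kg (adjusted p = 0.00456), a call lost in 10 of 14 fits that left out 1 rat, and at 400 mg/kg the change of -3.60 had an adjusted p of 0.021. Rofecoxib rats were at 7.79 to 9.53 in Nr4a3, within the controls, with a change of 0.60 (adjusted p = 0.869). Against aspirin at the same 35 mg/kg and 5 d, celecoxib was lower by 5.50 in Nr4a3 (SE 0.778) and by 4.53 in Atf3 (SE 0.626), and higher by 0.94 in C13h1orf53 (SE 0.134), each with an adjusted p of 0.00617, and these were the only 3 genes called (0.0211%). Those aspirin rats were at 10.1, 10.5 and 9.06 in Nr4a3. Celecoxib and aspirin rats came from different studies, so study and drug cannot be told apart there.

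Some genes of growth arrest and stretch were called lower with celecoxib 400 mg/kg. Rcan1, an inhibitor of calcineurin, was at 10.4, 10.4 and 10.5 at 3 d and 10.5, 10.2 and 10.4 at 5 d, below every control (10.9, 11.5 and 12.7), and it fell by 1.17 (SE 0.164, adjusted p = 0.00101). At 35 mg/kg Rcan1 was at 11.0, 11.2 and 10.8, also below every 5 d control, with a change of -0.83 (adjusted p = 0.199). Ccn2, the connective tissue growth factor of stretched muscle, was at 9.04, 9.15 and 9.87 at 3 d and 8.34, 9.41 and 8.79 at 5 d, with 5 of 6 below every control (9.66, 11.0 and 11.9), and it fell by 1.60 (SE 0.252, adjusted p = 0.00259). Gadd45g fell by 1.84, the small GTPase gene Rasl11b by 0.82, the AP-1 subunit Jund by 0.70 and Lmod2, which sets the length of actin filaments in heart muscle, by 0.66, each with an adjusted p of 0.00482 by limma. With rofecoxib these changes were -0.19 for Rcan1, -0.41 for Ccn2, -1.23 for Gadd45g, -0.18 for Rasl11b, -0.21 for Jund and -0.30 for Lmod2, none of them called.

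Of the 21 immediate early genes measured, celecoxib called 2 lower at 400 mg/kg (Atf3 and Jund) and 2 lower at 35 mg/kg (Atf3 and Nr4a3), and rofecoxib called 0. Of all genes 0.0563%, 0.0141% and 0.0422% were called lower in that order. At an unadjusted p under 0.05 the numbers lower were 14, 13 and 14 of 21, with medians of -0.79, -1.11 and -0.74, and none was higher. Over all 14217 genes 1066, 1120 and 808 were lower by that measure. Fos had changes of -3.65, -4.09 and -3.96 in the same order, with SE from 1.16 to 1.49 and adjusted p of 0.228, 0.252 and 0.115. Among 14 hypertrophy and stretch genes 2 were called lower with celecoxib 400 mg/kg (Rcan1 and Ccn2), where 0.0563% of all genes were. With rofecoxib or 35 mg/kg 0 were called. Only 1 gene rose at 35 mg/kg: C13h1orf53, an open reading frame, was at 7.40, 7.16 and 7.41 against 6.27 to 6.78 in the 5 d controls, a rise of 0.82 (adjusted p = 0.00817) whose call was lost in 12 of 14 fits that left out 1 rat, and at 400 mg/kg and 5 d it was lower than at 35 mg/kg by 1.04 (log2 difference -1.04, adjusted p = 0.00191).

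**Figure D4:**
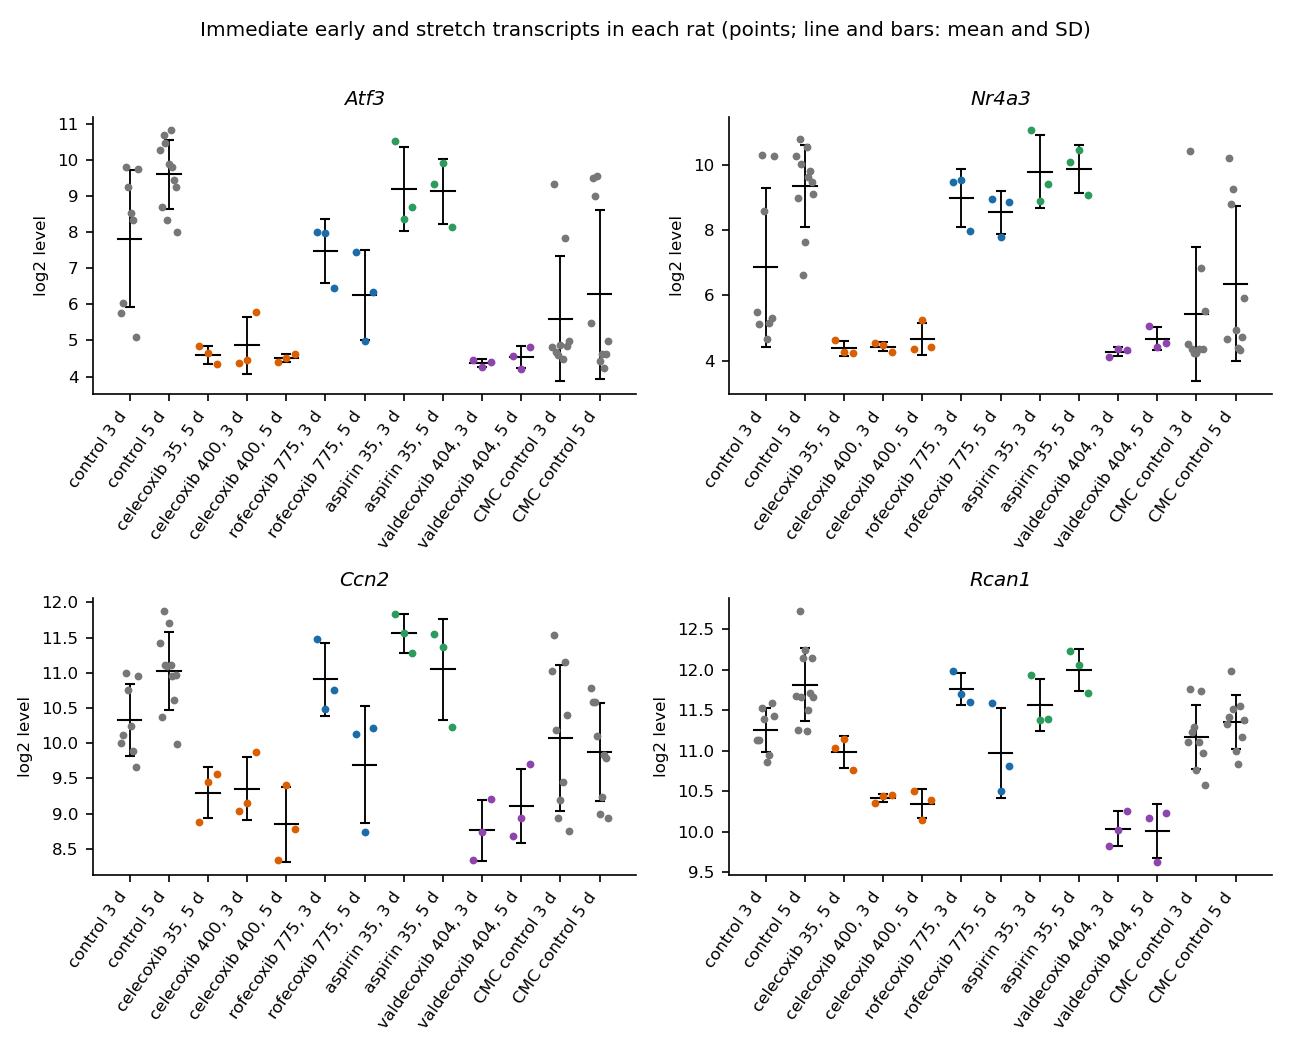
Log2 level (y axis) of 4 stress and stretch genes in each rat (points) with group mean (line) and SD (bars), by group (x axis): corn oil and CMC controls (grey), celecoxib (orange), rofecoxib (blue), aspirin (green) and valdecoxib (purple); doses are in mg/kg. All 9 celecoxib rats are under 6 in Atf3, as are all valdecoxib rats, most CMC controls and some 3 d corn oil controls, while the 5 d corn oil controls are all above 7.

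The genes of the prostanoid pathway itself were not called. All 14 synthesis genes, 8 of 10 receptor genes and all 6 genes of transport and breakdown were measured, and 0 of these 28 passed in any of the 3 comparisons with controls. Ptgs2, the target of both drugs, was low on the scale throughout: 3.58, 3.54 and 3.67 at 35 mg/kg, 3.77 to 3.98 with celecoxib 400 mg/kg, 3.82 to 4.33 with rofecoxib, and 3.73, 4.03 and 5.48 as lowest, median and highest in the controls. Its changes were -0.55 at 35 mg/kg (95% interval -0.98 to -0.12, adjusted p = 0.254), -0.34 at 400 mg/kg (-0.71 to 0.03) and -0.19 with rofecoxib (-0.56 to 0.17). Ptgs1 changed by -0.15, by -0.09 and by 0.34 (0.12 to 0.56, adjusted p = 0.151) in that order, and its level was 6.18, 6.48 and 6.76 after 3 d of rofecoxib, 2 of 3 above every control (5.56 to 6.28), and 5.65 to 6.03 after 5 d.

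Slco2a1, the prostaglandin transporter, came nearest to a call. It was at 6.43, 6.51 and 6.16 at 3 d and 6.06, 6.04 and 6.37 at 5 d of rofecoxib against 5.27, 5.75 and 6.28 in the controls, so the groups overlapped, and its rise of 0.49 had an adjusted p of 0.00696 but a fold of 1.40, under the minimum. With celecoxib it changed by 0.05 at 400 mg/kg and by -0.05 at 35 mg/kg. The phospholipases that supply arachidonic acid spread widely: Pla2g2a changed by 1.10 with celecoxib 400 mg/kg (adjusted p = 0.139), and Pla2g4a by -1.39 at 35 mg/kg (adjusted p = 0.307), -0.65 at 400 mg/kg (adjusted p = 0.575) and 0.94 with rofecoxib (adjusted p = 0.41). Pla2g4a was at 10.5, 9.30 and 8.90 in the 3 d rofecoxib rats, above all 3 d controls (7.17 to 7.84), and at 8.85, 7.70 and 9.02 at 5 d, inside the 5 d controls (7.10 to 10.5). Ptgis, prostacyclin synthase, changed by -0.30 with celecoxib 400 mg/kg (adjusted p = 0.187) and by 0.01 with rofecoxib, and Tbxas1, thromboxane synthase, by -0.41 at 35 mg/kg (adjusted p = 0.209), 0.08 at 400 mg/kg and 0.16 with rofecoxib. Receptor changes ran from -0.57 (Ptgfr, celecoxib 400 mg/kg) to 0.19 (Ptger3, rofecoxib).

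**Figure D5:**
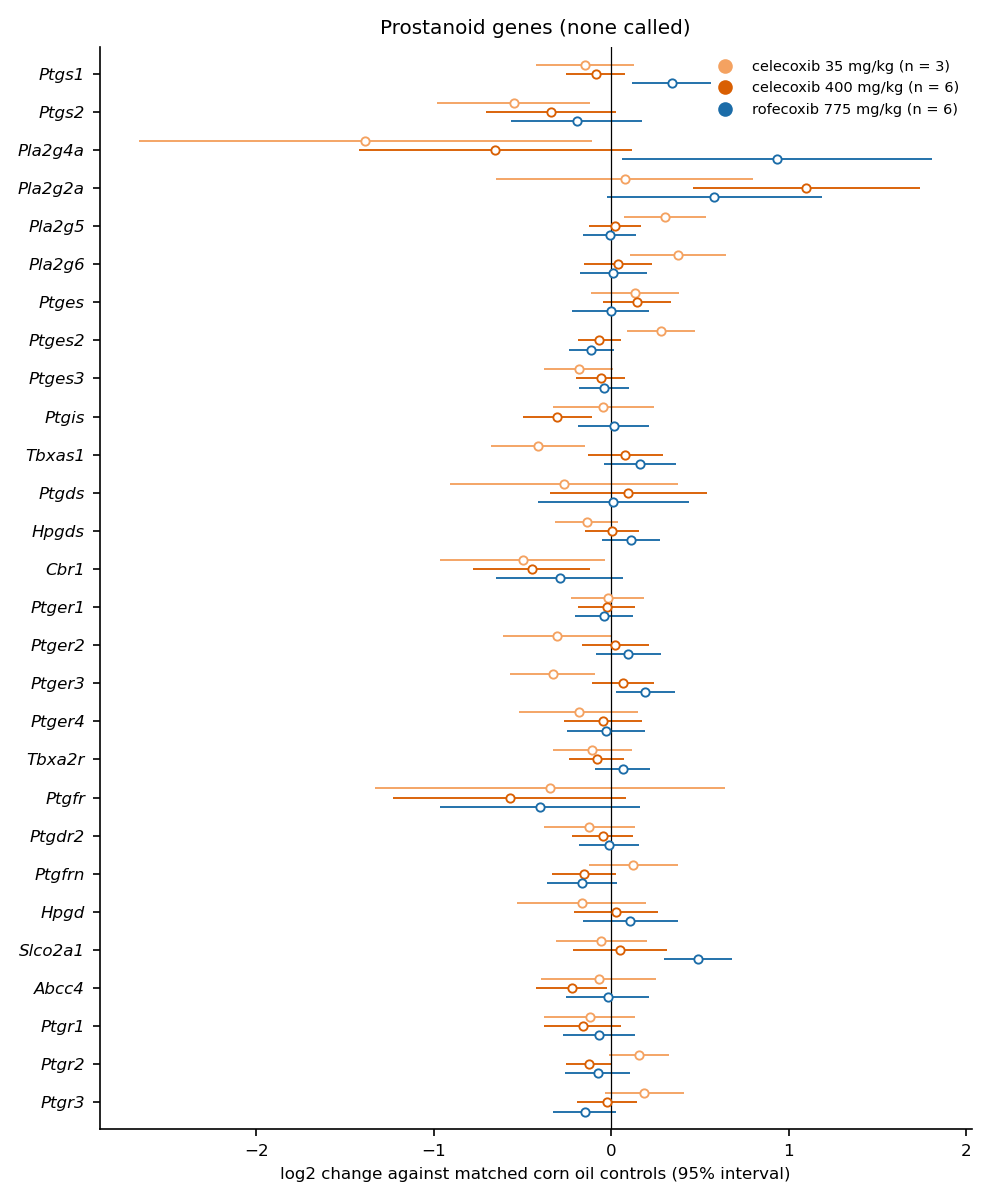
Log2 change with 95% interval (x axis) of the 28 measured genes of prostanoid synthesis, receptors, and transport and breakdown (rows) against corn oil controls for celecoxib 35 mg/kg (light orange), celecoxib 400 mg/kg (orange) and rofecoxib 775 mg/kg (blue). All points are open because 0 genes were called, and the widest intervals belong to Pla2g4a and Ptgfr.

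Among 20 measured genes of the lipoxygenase and epoxygenase branches 1 was called, with rofecoxib, which called 0.148% of all genes higher. This was Ephx1, the microsomal epoxide hydrolase, which rose by 0.78 with rofecoxib (SE 0.149, adjusted p = 0.00696). It was at 7.65, 7.60 and 7.54 at 3 d and 7.82, 7.91 and 7.68 at 5 d, above every control (6.42 to 7.28) but replicate 7 of 3 d at 8.03. With celecoxib 400 mg/kg Ephx1 changed by 0.58 (adjusted p = 0.112), and with 35 mg/kg by 0.03. The rofecoxib call of Ephx1 was lost in 15 of 25 fits that left out 1 rat, and without the rat with raised liver genes (adjusted p = 0.021). Celecoxib, as a sulfonamide, also binds carbonic anhydrases in the test tube. Of 14 carbonic anhydrase genes measured, 0 were called in the 3 comparisons, and the widest change, 1.12 in Car3 with rofecoxib, had a 95% interval from -0.09 to 2.33.

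Most other lists gave 0 calls with either coxib: cholesterol synthesis, fatty acid oxidation, calcium handling, blood pressure and salt handling, oxidative phosphorylation, the unfolded protein response, p53 targets, heat shock and interferon response among them. Cell cycle genes leaned lower with celecoxib 400 mg/kg, 16 of 29 at an unadjusted p under 0.05 (median -0.25, with Cdk1 at -1.12), against a median of -0.02 with rofecoxib. Collagen and matrix genes were lower in 13 of 29 by the same measure with celecoxib 400 mg/kg (median -0.20). Glucocorticoid targets were lower in 13 of 17 at 35 mg/kg (median -0.82, led by Errfi1 at -1.79) and in 5 of 17 at 400 mg/kg (median -0.31). None of these genes was called, and lower values at an unadjusted p under 0.05 were found for 1066 of all 14217 genes at 400 mg/kg and for 1120 at 35 mg/kg.

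Between 35 and 400 mg/kg of celecoxib at 5 d, 4 genes were called (0.0281%): S100a8, S100a9 and Stfa2l2 higher and C13h1orf53 lower at 400 mg/kg. In Stfa2l2 the 3 rats of 400 mg/kg, at 4.20, 4.60 and 4.37, stood above the 35 mg/kg rats (3.62, 3.64 and 3.62) and the 5 d controls (3.55 to 3.75). Of the 16 clock genes 0 were called between the doses, with 5 higher and 5 lower at an unadjusted p under 0.05: the difference was -1.08 for Bmal1 (95% interval -1.58 to -0.59, adjusted p = 0.0991), -0.86 for Npas2 (adjusted p = 0.0836), 1.39 for Per2 (adjusted p = 0.111) and 0.89 for Dbp (0.29 to 1.49, adjusted p = 0.161). By contrast the doses differed by 0.30 in Nr4a3 (95% interval -1.32 to 1.91), an interval too wide to show that they act alike. Leaving out replicate 1 or replicate 3 of 35 mg/kg took the dose calls from 4 to 0.

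By duration, celecoxib 400 mg/kg called 0 genes in its 3 d rats (889 at an unadjusted p under 0.05) and 18 in its 5 d rats (0.127%), among them Abcg1, a cholesterol exporter, at 1.15 and the TWEAK receptor gene Tnfrsf12a at -2.13, both named after their values were seen. Rofecoxib called 19 genes at 3 d (0.134%) and 4 at 5 d (0.0281%). At 3 d they included Cyb561, an electron carrier of vesicle membranes, at 1.34 and Fgf9 at -1.37, whose changes at 5 d were 0.37 and -0.46. The difference between durations was called for 0 genes with rofecoxib (1649 at an unadjusted p under 0.05, and 0 by the methods' t-test), so the counts by day do not show that its response differed between days. In S100a8 the change at 5 d differed from that at 3 d by -0.37 (SE 0.668) with rofecoxib, whose 5 d rats spread from 6.09 to 10.7.

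Valdecoxib, a further coxib with a sulfonamide like celecoxib, had been given at 404 mg/kg in CMC to 6 rats, with 18 CMC controls that no coxib group above used. It changed 103 genes (0.724%), and 6 of the 10 genes of celecoxib 400 mg/kg were among them with the same sign (60% of the celecoxib list and 5.83% of the valdecoxib list): Dbp, Per3, Nfil3, Gadd45g, Rasl11b and Rcan1. For rofecoxib 14 of 27 were shared (51.9% and 13.6%), including Bmal1, Npas2, Tef, S100a8, S100a9 and Ephx1. Valdecoxib changed Dbp by 2.88, Bmal1 by -2.39, S100a8 by 2.05, Rcan1 by -1.24 and Ephx1 by 1.35. The drugs differed in dose and vehicle and were not tested against each other.

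The older cyclooxygenase inhibitors used the same corn oil controls as the coxibs, so their values are given side by side only. Aspirin at 35 mg/kg called 0 genes (514 at an unadjusted p under 0.05), with changes of 0.22 in Dbp, -0.16 in Bmal1, 0.01 in S100a8 and 0.41 in Atf3. Sulindac at 132 mg/kg (5 rats) called 790 (5.56%), with changes of 0.73 in Dbp (not called), -1.11 in Bmal1, 5.51 in S100a8 and -0.59 in Atf3 (not called). Set beside these, celecoxib 400 mg/kg had 2.17 in Dbp, -1.37 in Bmal1 (not called) and -4.06 in Atf3. Its S100a8 change was 2.08 over both durations (not called), which joins 3 d rats inside the control range with 5 d rats at 4.00. Rofecoxib had 2.33 in Dbp, -1.60 in Bmal1, 2.90 in S100a8 and -1.90 in Atf3 (not called).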

How the data were processed

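The authors deposited log2 intensities of 31099 probe sets, made from the scanned arrays by RMA per the labels (version not given in the sources used here), and every sample value here is such a log2 value. The 20832 probe sets with 1 gene symbol were reduced to 14217 genes, each by the probe set of highest mean. Groups were taken from the compound, dose, time, vehicle and route labels. Each dose was compared with its controls by limma (lmFit and eBayes, version 3.58.1, R 4.3.3) with days as a factor, and p-values were adjusted over all genes. The dose, duration and aspirin contrasts used the same tool. Thresholds were those of the study, but limma stood in for the t-test of its methods. By that t-test the calls were 0 for celecoxib 400 mg/kg, 0 for 35 mg/kg and 13 for rofecoxib. The fit was tested on simulated data with independent noise in each array. That simulation held no effect of study or extraction day, so it cannot show how the fit handles these. The number of arrays limits the precision. Named genes were the called genes of largest change, all prostanoid and carbonic anhydrase genes, and up to 4 genes of each other list. Members and lists were chosen with earlier results of these data known. The alternatives, including leaving out each rat, are given in the closing section, and 12 unassigned controls were not used.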

Additional observations from a re-analysis of the deposited data

Results flagged for a closer look

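Replicate 7 of the 3 d corn oil controls stood apart in 8 named genes. Its gap to the nearest of the 8 controls took a share of the group's range of 0.85 in Dbp (10.2 against 7.28), 0.777 in Nfil3 (6.64 against 7.99), 0.751 in Bhlhe41 (9.38 against 7.96), 0.712 in Npas2 (6.43 against 7.62), 0.698 in Bmal1 (5.99 against 8.04), 0.664 in Ephx1 (8.03 against 7.02), 0.59 in Gadd45g (7.06 against 8.70) and 0.57 in Tspan4 (7.89 against 7.41). In all 8 genes this control lay on the side of the coxib rats. Chance marks about 1 in 20 groups in this way, and 37 groups were examined. The 8 marks come from the same animal and include clock genes that move together. They are not independent, so their number cannot be set against that rate. The animal came from neither coxib study.

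The response to celecoxib 400 mg/kg differed between 5 d and 3 d by 3.99 in S100a8, 3.44 in S100a9 and 0.638 in Stfa2l2 (log2, limma interaction). Between 400 and 35 mg/kg at 5 d the difference was 4.05 in S100a8, 3.85 in S100a9, 0.766 in Stfa2l2 and -1.04 in C13h1orf53.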

How the results depend on the processing

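None of the results changed sign among called values, but counts of called genes moved with the setting. For celecoxib 400 mg/kg the count of 10 became 23 with controls of every campaign, 4 with the upper 60% of genes by mean, 0 by the methods' t-test, 24 with all groups in 1 fit, 1 with extraction day as a term, 5 with study as a random block, 0 without arrays high in atrial genes and 52 at an adjusted p of 0.05 with no fold minimum. For 35 mg/kg the 3 became 0 with the upper 60%, the t-test or extraction day, 1 with study as a block or without high-atrial arrays, and 5 at the looser threshold. For rofecoxib the 27 became 10 with the upper 60%, 13 by the t-test, 53 with extraction day, 1 without high-atrial arrays, 15 without the array raised in liver genes and 118 at the looser threshold. The dose count of 4 became 0 with the upper 60%, 1 by the t-test, 2 with extraction day, 1 without high-atrial arrays and 7 at the looser threshold, and the celecoxib duration count of 3 became 0 with the upper 60%, with all groups in 1 fit, with extraction day or without high-atrial arrays, and 1 after quantile normalization. The rofecoxib duration count of 0 became 1 at the looser threshold. Celecoxib against aspirin went from 3 to 0 by the t-test or with the upper 60%, aspirin from 0 to 1, sulindac from 790 to 2842 and valdecoxib from 103 to 960 at the looser threshold, and valdecoxib to 68 by the t-test. Leaving out arrays high in atrial genes, or raised in liver genes, was chosen after seeing the data and removed rats as well, 2 of 3 rofecoxib rats at 3 d among them; otherwise the cause was not tested.

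Leaving out 1 rat at a time gave 4 to 21 calls for celecoxib 400 mg/kg, 1 to 5 for 35 mg/kg, 14 to 37 for rofecoxib, 0 to 10 for the doses, 1 to 6 for celecoxib duration and 0 to 1 for rofecoxib duration. For celecoxib 400 mg/kg the counts were 4 without replicate 1 or 2 at 5 d, 5 without replicate 3 at 5 d or replicate 2 at 3 d, 6 without replicate 1 at 3 d and 21 without control replicate 7 of 3 d, which stood out in genes of this comparison. For rofecoxib they were 14 without replicate 3 at 3 d and 15 without replicate 3 at 5 d. Dbp, Per3, Atf3 and Rcan1 were called in all 25 such fits of celecoxib 400 mg/kg, but all 4 lost the call by the t-test and without high-atrial arrays, and Dbp, Per3 and Atf3 also with extraction day, as did Nfil3, Ccn2, Gadd45g, Jund, Lmod2 and Rasl11b. For rofecoxib S100a8, S100a9, Dbp, Per3, Bmal1, Nfil3, Npas2, Tef, Bhlhe41, Asb2, Fcgr2b and Lilrb4 were called in all 25, and of these only Bhlhe41 without high-atrial arrays. Other settings took further calls from these genes: Asb2 and Fcgr2b with all groups in 1 fit, Lilrb4 with extraction day, and Tef where each gene was given by its probe set of largest SD. With that probe set Tcap (rofecoxib) and Jund (celecoxib 400 mg/kg) lost their calls as well. No paired analysis was possible because each array used came from a different rat.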
